A study of Mus musculus with 3 samples.

Results

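Smooth muscle cells are the contractile cells of vessel walls and of the small muscles that raise hairs. In these droplet single-cell RNA libraries of mouse dorsal skin they were taken as barcodes with 2 or more unique molecular identifiers (UMIs) of Myh11, 10 or more of Acta2 and 5 or more of Tagln, with no UMI of Ptprc (immune cells) or Cdh5 (endothelium). Before that, a barcode was kept when it had at least 300 genes and 500 UMIs, with no more than 10% of them mitochondrial. The rule found 594 cells among 26143 kept barcodes. A cell with a UMI of Rgs5 was placed in the vascular set. A cell without Rgs5 but with UMIs of both Des and Itga8 was placed in the hair erector set. The cells and sets were thus chosen by the UMI counts of these genes, whose levels are a description.

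The animals were C57BL/6 mice, and no mutant allele or treatment is named for any of them. There were 3 libraries, from neonatal skin, from skin at 3 weeks and from skin at 2 months of age. With 1 library per age there are no replicates, so no difference below was tested, and the age of a library and everything else that set it apart cannot be told apart. The labels give neither the sex of the mice nor how many were used for a library, and the skin was dissociated with collagenase D and DNase, so only cells that survived digestion are represented. The neonatal, 3 week and 2 month matrices held 84086755, 113874172 and 98432611 UMIs, and 7911, 8900 and 9332 barcodes were kept. The libraries shared 23 to 31 kept barcode sequences pairwise, and no smooth muscle barcode occurred in more than 1 library.

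Smooth muscle shortens when calcium entering the cytoplasm activates myosin light chain kinase, which lets myosin pull on actin filaments anchored at dense plaques. In skin, vascular smooth muscle encircles arterioles and larger vessels, depends on Notch signals from the endothelium and responds to circulating and nerve-released constrictors. The hair erector muscle (arrector pili) connects the hair follicle to the upper dermis, is driven by sympathetic nerves through adrenergic receptors, and binds nephronectin in the follicle's basement membrane through integrin alpha-8. Many contractile genes carry a CArG box, the site bound by serum response factor with its partner myocardin.

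Promoters of contractile genes described below are shown to place these boxes. Each window runs from 250 bases before to 50 bases after the RefSeq gene start on GRCm38.p6 (mm10), 5' to 3' on the gene's strand. Capitals mark a CArG box, here a pair of C, then 6 bases of which at least 5 are A or T, then a pair of G. Acta2, smooth muscle actin, lies at chr19:34255324-34255623 on the minus strand, with boxes that begin 84 and 34 bases upstream of the start. Myl9, the regulatory light chain of myosin, lies at chr2:156775214-156775513 on the plus strand, with boxes 161 and 99 bases upstream. Vcl, vinculin of the dense plaques, lies at chr14:20929148-20929447 on the plus strand, with a box 227 bases upstream.
Acta2: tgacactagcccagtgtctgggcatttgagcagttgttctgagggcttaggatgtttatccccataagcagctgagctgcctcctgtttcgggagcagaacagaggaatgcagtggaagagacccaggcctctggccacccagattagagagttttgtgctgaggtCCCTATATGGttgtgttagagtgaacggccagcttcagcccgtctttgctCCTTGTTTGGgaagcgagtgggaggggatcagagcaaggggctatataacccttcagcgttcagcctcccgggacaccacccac
Myl9: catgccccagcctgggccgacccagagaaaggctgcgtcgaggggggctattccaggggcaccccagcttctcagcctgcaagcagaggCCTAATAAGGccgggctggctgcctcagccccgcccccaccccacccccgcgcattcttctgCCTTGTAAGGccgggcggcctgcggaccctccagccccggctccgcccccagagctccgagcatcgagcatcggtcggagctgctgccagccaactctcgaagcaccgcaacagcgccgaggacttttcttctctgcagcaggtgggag
Vcl: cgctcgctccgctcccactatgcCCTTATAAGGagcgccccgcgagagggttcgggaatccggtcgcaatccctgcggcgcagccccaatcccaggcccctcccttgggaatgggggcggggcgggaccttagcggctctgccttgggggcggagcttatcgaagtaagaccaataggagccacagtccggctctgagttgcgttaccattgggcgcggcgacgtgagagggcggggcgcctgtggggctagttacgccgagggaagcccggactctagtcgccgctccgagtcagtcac
A box with all 6 middle bases A or T was found in the windows of 4 of 19 genes of the actin and myosin list that had one (21.1%), namely Myl9, Myl6, Actg1 and Cnn2. It was in 5 of 31 windows of the desmin and adhesion plaque list (16.1%), namely Ldb3, Vcl, Dmd, Fhl1 and Fhl2, and in 1 of 17 of the vascular mural list (5.88%), Rergl. Among all 27025 genes with a window of the same length the share was 1.81% (488 genes). With 1 mismatch allowed, as for the Acta2 boxes, the shares were 31.6%, 32.3%, 5.88% and 11.3%. The motif is its own reverse complement, so both strands were covered. A match is a description of letters in this window.

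Smooth muscle cells made up 71 of 7911 neonatal barcodes, 301 of 8900 at 3 weeks and 222 of 9332 at 2 months. These are shares of 0.898% (95% exact Clopper-Pearson interval 0.702 to 1.13%), 3.38% (3.02 to 3.78%) and 2.38% (2.08 to 2.71%). The neonatal share was the lowest of the 3, and the 3 week share the highest. Their mitochondrial share was higher than that of the library as a whole, with medians of 5.29%, 6.74% and 6.52% against 3.60%, 3.03% and 2.59%. A limit of 5% mitochondrial UMIs in place of 10% lowered the shares to 0.476%, 0.845% and 0.643%, so the order of the ages remained while the level depended on that limit. The intervals here and below cover counting error only.

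The vascular set held 64 neonatal cells, 146 cells at 3 weeks and 161 at 2 months, and the hair erector set 1, 137 and 45. Vascular cells were therefore 90.1% of neonatal smooth muscle cells, with an interval of 80.7 to 95.9%. Their share was 48.5% (42.7 to 54.3%) in the 3 week library and 72.5% (66.2 to 78.3%) in the 2 month library. Hair erector cells were 1.41%, 45.5% (39.8 to 51.3%) and 20.3% (15.2 to 26.2%) in the same order. Of all kept barcodes, the vascular set took 0.809%, 1.64% and 1.73%, and the hair erector set 0.0126%, 1.54% and 0.482%. The remaining 6, 18 and 16 cells had no Rgs5 and lacked Des, Itga8 or both.

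**Figure D1:**
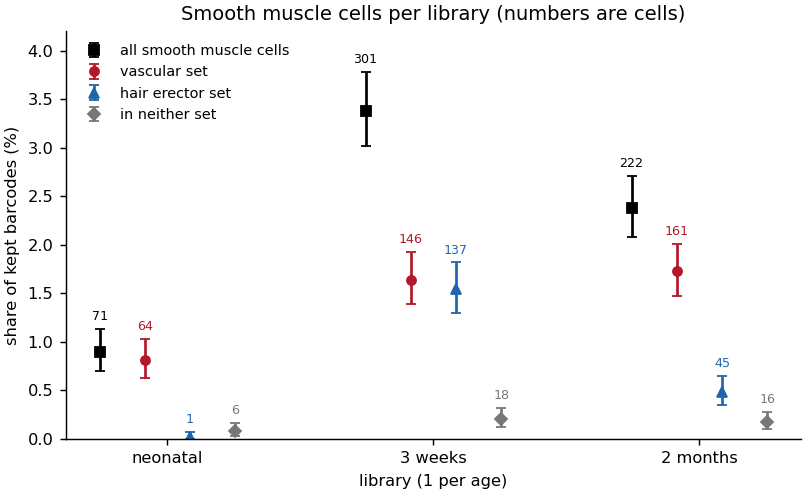
Share of kept barcodes (vertical axis, %) taken by all smooth muscle cells, the vascular set, the hair erector set and cells in neither set, for each library on the horizontal axis. Bars are 95% exact Clopper-Pearson intervals and the numbers are cells. The neonatal library shows 1 hair erector cell and 64 vascular ones, whereas the older libraries show 137 and 45 of the former and 146 and 161 of the latter.

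Few cells lay at the edge of the rule. Members with exactly 2 UMIs of Myh11 numbered 5, 6 and 3, and 5, 4 and 2 barcodes missed the rule with 1 UMI. The median smooth muscle cell held 16, 28 and 14 UMIs of Myh11, the smooth muscle myosin heavy chain. For Acta2 the medians were 67, 115 and 75.5 UMIs, and for the actin-binding protein transgelin (Tagln) 65, 61 and 62. In the neonatal library a further 192 barcodes met the Acta2 and Tagln limits with 0 UMIs of Myh11, against 32 and 2 in the older libraries. The split was less sharp: 2, 12 and 19 cells were vascular by 1 UMI of Rgs5, whose median in the vascular set was 28.5, 12 and 7 UMIs. Of the vascular cells, 33, 81 and 92 also had UMIs of both Des and Itga8. After thinning every cell to 1500 UMIs, only 0%, 18.6% and 10.5% of the cells met the hair erector criteria.

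Cnn1 (calponin), the smooth muscle marker that the rule did not use, had a UMI in 39 of 71, 214 of 301 and 105 of 222 members. In the hair erector set it was found in 136 of 137 cells at 3 weeks and in 35 of 45 at 2 months. The 4 smooth muscle markers together reached 22039, 21802 and 24858 counts of a gene scaled to 1000000 UMIs of a set (CPM) in the vascular set by age, and 31724 and 39334 in the hair erector set at 3 weeks and 2 months. In keratinocytes of the same libraries the sum was 441, 85.3 and 37.1 CPM. The endothelial and immune marker sums of both sets lay between 0 and 9.52 CPM. These sums are a description, since the rule required Myh11, Acta2 and Tagln and allowed no UMI of Cdh5 or Ptprc.

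Transcripts of other skin cells were present in the older libraries. The fibroblast markers Pdgfra, Dcn, Lum, Dpt and Col1a1 summed to 1361, 7212 and 13989 CPM in the vascular set and to 13004 and 8561 CPM in the hair erector set. Keratinocyte markers summed to 26.8, 1243 and 931.5 CPM in the vascular set and to 1861 and 46.5 CPM in the hair erector set, and haemoglobin genes to 39.2, 13503 and 5519 and to 5277 and 20.7 CPM. A restricted set without cells that had a UMI of Pdgfra, 10 or more of Dcn or 5 or more of Krt14 was therefore used beside the full one, a division chosen after the values were seen. It kept 65, 252 and 196 members, of which 59, 128 and 142 were vascular and 1, 107 and 40 hair erector. There the fibroblast sum was 301, 436 and 271 CPM in vascular cells and 603 and 210 in hair erector cells, while the haemoglobin sum stayed at 42.2, 18913 and 7779 CPM in vascular cells. The keratinocyte sum of the 3 week hair erector cells was still 1471 CPM, and that of the vascular cells was 28.1, 724 and 71.9 CPM by age. The restricted cells were thus not free of fibroblast or keratinocyte transcripts. Scrublet marked 6, 19 and 21 members as possible doublets, which were 8.45%, 6.31% and 9.46% of members. Of all kept barcodes it marked 2.37% at 3 weeks and 3.73% at 2 months. In the neonatal library the top 6% of scores were marked instead. The marked members were kept except in an alternative.

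**Figure D2:**
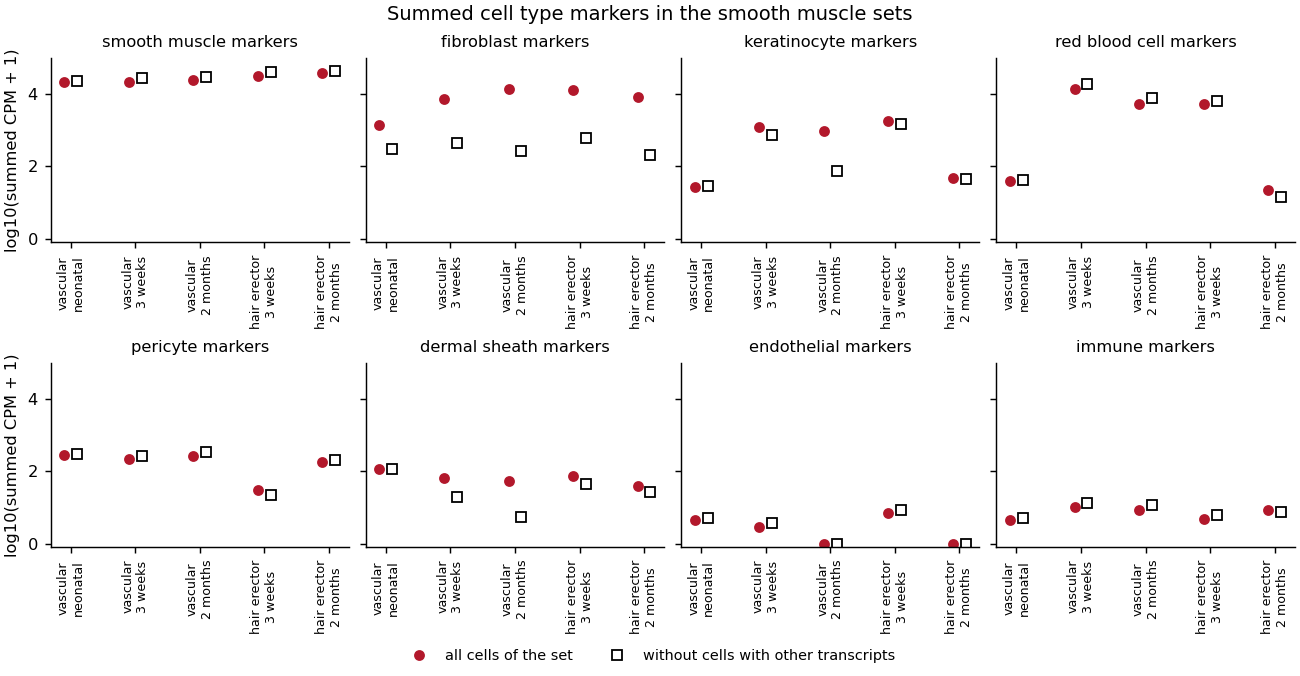
Summed level of the markers of smooth muscle and of other cell types, as log10(CPM + 1) on the vertical axis, in the vascular and hair erector sets of each library, for all cells of a set (filled) and without cells that carry fibroblast or keratinocyte transcripts (open). Fibroblast markers in the vascular set go from 1361 CPM in the neonatal library to 13989 at 2 months among all cells, and from 301 to 271 among the restricted cells.

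The hair erector set held more of the contractile and anchoring transcripts than the vascular set of the same library. A gene is counted as higher or lower at a 2-fold or larger ratio of CPM, among genes with at least 10 CPM and 20 counts in a compared set. Genes that passed this filter are called measured, and those of a list that did not are left out of its counts. At 3 weeks 25.5% of 7800 genes passed this limit between the sets, 11.1% higher in the vascular set and 14.4% higher in the hair erector set. At 2 months 12.7% of 5675 did, 8.04% and 4.63%. Because genes of these cells made the sets, nothing is read from these shares. Rgs5, Des and Itga8, which made the split, were not left out of the list counts between sets here and below. Their own direction in those counts is therefore no finding. Of the desmin and adhesion plaque list, 17 of 36 measured genes were higher in the hair erector set at 3 weeks and 15 of 34 at 2 months, with 1 and 0 higher in the vascular set. The median log2 ratio of vascular to hair erector was -0.89 and -0.91, against -0.13 and 0.04 over all genes. Of the actin, myosin and thin filament list, 5 of 22 and 5 of 21 were higher in the hair erector set and 2 and 0 in the vascular set. Among the restricted cells 34.3% of genes passed at 3 weeks (14.5% higher and 19.8% lower in the vascular set) and 14.2% at 2 months (8.77% and 5.38%). The 3 week count of the actin list there was 9 of 22 higher in the hair erector set.

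Actg2, gamma smooth muscle actin, stood at 182 CPM in the vascular set and 2582 CPM in the hair erector set at 3 weeks, and at 89.2 and 1314 CPM at 2 months, 14.2-fold and 14.7-fold higher in the hair erector set. The interval of the 3 week log2 ratio was -4.05 to -3.62. Cnn1 was 6.58-fold and 5.09-fold higher there (228 against 1498 CPM, and 227 against 1156 CPM). Mylk, the myosin light chain kinase, showed 1392 against 5810 CPM and 1465 against 4604 CPM. The Z-disc and plaque protein Synpo2 showed 163 against 768 CPM and 207 against 764 CPM, and smoothelin (Smtn) 87.6 against 461 CPM and 116 against 439 CPM. Tpm2, a tropomyosin of the thin filament, was 2.61-fold and 2.10-fold higher in the hair erector set, but 1.82-fold at 2 months in the restricted cells. Each of these 6 genes was higher in the hair erector set at both ages, and for each the interval of the log2 ratio lay wholly below 0. At 2 months the set was mixed: 15 of its 45 cells, those without a UMI of Notch3, had 2988 CPM of Actg2 and 8657 of Mylk, and the other 30 had 49.8 CPM and 1545 CPM, against 89.2 and 1465 CPM in the vascular set.

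Receptors and channels were divided between the sets. The adrenergic receptor Adra1a, which couples sympathetic input to contraction, was 7.17-fold higher in the hair erector set at 3 weeks (38.1 against 273 CPM) and 5.82-fold at 2 months (35.1 against 204 CPM). Adra2c, another adrenergic receptor, had 5.71 against 171 CPM and 6.37 against 176 CPM. Plcb4, a phospholipase C downstream of such receptors, was 6.01-fold and 5.62-fold higher in the hair erector set. Gja1, a gap junction connexin, was 10.2-fold and 4.28-fold higher there, and in the restricted vascular cells it stood at 16.0 and 0 CPM against 46.6 and 80.7 CPM among all. In contrast, the connexin gene Gja4 had 99.97 CPM in the vascular set against 7.14 CPM at 3 weeks and 104 against 82.6 CPM at 2 months. Other receptors were higher in the vascular set. Ednra, the endothelin receptor, stood at 87.6 against 5.19 CPM and 99.8 against 28.4 CPM. The vasopressin receptor Avpr1a stood at 277 against 20.8 CPM at 3 weeks, but at 225 against 178 CPM at 2 months, where the interval of the log2 ratio ran from -0.06 to 0.75. S1pr3, a sphingosine phosphate receptor, was 16.5-fold higher at 3 weeks and 1.77-fold at 2 months. Of the agonist receptor list 7 of 19 measured genes were higher in each set at 3 weeks, and 4 of 15 in each at 2 months. Of the channel and calcium list, 16 of 31 were higher in the vascular set and 4 in the hair erector set at 3 weeks, against 4 and 3 of 27 at 2 months. Pln (phospholamban, which restrains the calcium pump) was 20.2-fold higher in the vascular set at 3 weeks and 1.34-fold at 2 months.

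Vascular mural and Notch genes marked the vascular set at 3 weeks. Of the mural list, 21 of 26 measured genes were higher in the vascular set and 3 lower (median log2 2.61), and of the Notch list 7 of 9 and 0 (median 2.61). At 2 months the counts were 6 of 24 and 2 of 9 higher. The receptor Notch3 had 401 against 21.4 CPM at 3 weeks (18.7-fold) and 511 against 310 CPM at 2 months (1.65-fold). Nrarp, a Notch target that limits the signal, had 226 against 26.6 CPM and 250 against 173 CPM, and the Notch targets Heyl and Hey2 had 40.0 and 26.7 CPM in the 3 week vascular set against 6.49 and 0.649 CPM. Gamma-synuclein (Sncg) was 19.4-fold higher at 3 weeks and 1.14-fold at 2 months. Pdgfrb, the receptor for the growth factor that recruits mural cells, had 178 against 35.7 CPM and 255 against 155 CPM. Mcam, also on the mural list, was not higher in the vascular set: it had 361 against 456 CPM and 347 against 514 CPM.

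Transcription factors were divided as well: of 40 measured, 20 were higher in the vascular set and 6 in the hair erector set at 3 weeks, and 9 and 3 of 36 at 2 months. Epas1, a hypoxia-inducible factor, had 546 against 26.6 CPM at 3 weeks and 750 against 374 CPM at 2 months. Scleraxis (Scx), known from tendon, had 4.76 CPM in the vascular set against 193 CPM in the hair erector set at 3 weeks, and 6.37 against 142 CPM at 2 months. The mesenchymal homeobox gene Prrx1 was 4.44-fold and 3.29-fold higher in the hair erector set. Foxd1 had 1.90 against 79.2 CPM and 11.7 against 61.9 CPM. Myocardin (Myocd) had 39.0 against 90.2 CPM and 56.3 against 92.9 CPM, so the cofactor of serum response factor was present in both sets.

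Secreted factors and matrix genes of the hair erector set included BMP antagonists and ligands of epithelium and nerve. Grem1, an antagonist of BMPs, had 12.4 CPM in the vascular set and 517 CPM in the hair erector set at 3 weeks, and 17.0 against 341 CPM at 2 months. Chrdl1, another BMP antagonist, had 6.67 against 94.1 CPM and 5.31 against 92.9 CPM. Nephronectin (Npnt), the ligand of integrin alpha-8, had 11.4 against 318 CPM at 3 weeks and 2.12 against 181 CPM at 2 months. Fgf7, a growth factor that acts on epithelium, had 15.2 against 158 CPM and 11.7 against 186 CPM, and the neurotrophin Ntf3 35.2 against 145 CPM and 66.9 against 214 CPM. In the restricted vascular cells Grem1 stood at 17.4 and 0 CPM and Fgf7 at 8.02 and 1.498 CPM at 3 weeks and 2 months, so their vascular level at 2 months came with the cells left out of the restricted set. In the vascular set Bmp2 was higher, with 113 against 18.8 CPM and 128 against 77.4 CPM. The laminin gene Lama5 had 246 against 94.8 CPM and 222 against 157 CPM. Of the TGF-beta and BMP list 7 of 27 measured genes were higher in the vascular set and 6 in the hair erector set at 3 weeks, and of the growth and nerve factor list 5 and 8 of 22.

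Both pathways in the title of the series had members in these cells. Il1r1, the receptor for IL-1, had 107 CPM in the vascular set and 26.0 CPM in the hair erector set at 3 weeks, 4.11-fold higher, and 114 against 64.5 CPM at 2 months. Of the IL-1, NF-kB and chemokine list 8 of 27 measured genes were higher in the vascular set and 2 in the hair erector set at 3 weeks, but 1 and 3 of 20 at 2 months. Among the restricted cells these were 15 and 0 of 17 at 3 weeks and 2 and 0 of 14 at 2 months. Il6 had 349 against 79.8 CPM at 3 weeks and 165 against 155 CPM at 2 months. Of the WNT list 5 of 25 measured genes were higher in the vascular set and 4 in the hair erector set at 3 weeks. Among them, the WNT receptor Fzd4 had 116 against 9.73 CPM at 3 weeks and 143 against 61.9 CPM at 2 months. Nkd2, an inhibitor of WNT signalling, had 17.1 against 82.4 CPM and 17.0 against 74.9 CPM, and the related Nkd1 82.8 against 170.0 CPM and 49.9 against 170.3 CPM. WNT genes thus lay on both sides.

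The remaining lists were divided or gave few genes past the limit. At 3 weeks, contraction signalling and relaxation had 8 of 27 measured genes higher in the vascular set and 6 higher in the hair erector set, integrins 2 and 3 of 12, basement membrane 3 and 4 of 21, elastic and interstitial matrix 8 and 8 of 49, and hedgehog 0 and 2 of 5. Imprinted and fetal growth genes had 3 and 3 of 18, cell cycle genes 2 and 8 of 16, interferon and class I genes 7 and 4 of 27, and dissociation genes 2 and 0 of 29. In the restricted cells the cell cycle counts were 4 and 0 of 6 and the dissociation counts 11 and 0 of 29.

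Among all genes with at least 50 CPM on the higher side in both libraries, other than those of the rule, the genes with the highest ratio at both ages on the hair erector side included muscle proteins. Mybpc1, a myosin-binding protein of skeletal muscle, had 3.81 CPM in the vascular set and 362 CPM in the hair erector set at 3 weeks and 10.6 against 217 CPM at 2 months. Ckm, the muscle creatine kinase, had 17.1 against 486 CPM and 2.12 against 188 CPM. Of the other skeletal muscle markers, the regulators Pax7, Myod1 and Myog were at 0 in both hair erector sets. Acta1 and Tnnt3 had counts in the 3 week hair erector set and none at 2 months. With Ckm, these 6 markers summed to 502 and 188 CPM there. Butyrylcholinesterase (Bche) had 3.81 against 312 CPM and 2.12 against 142 CPM. Mfap3l, Tes, Bdh1 and 1190005I06Rik completed this side with Npnt, Adra2c and Scx. The vascular side was led by Coch. Next came Fabp4, a fatty acid binding protein, with 1294 against 9.09 CPM and 2558 against 516 CPM. Lmcd1 had 219 against 3.89 CPM and 409 against 95.5 CPM, and Lin7a 70.5 CPM against 0 at 3 weeks, at least 36.2-fold higher, and 66.9 against 18.1 CPM at 2 months. The angiogenic factor Pgf had 128.5 against 8.44 CPM and 199.7 against 54.2 CPM. Nr2f1, Notch1, Frat2, Angptl4 and Nrgn were the others. In the restricted cells the vascular level of Coch was 36.1 and 7.49 CPM against 250 and 92.4 CPM among all.

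**Figure D3:**
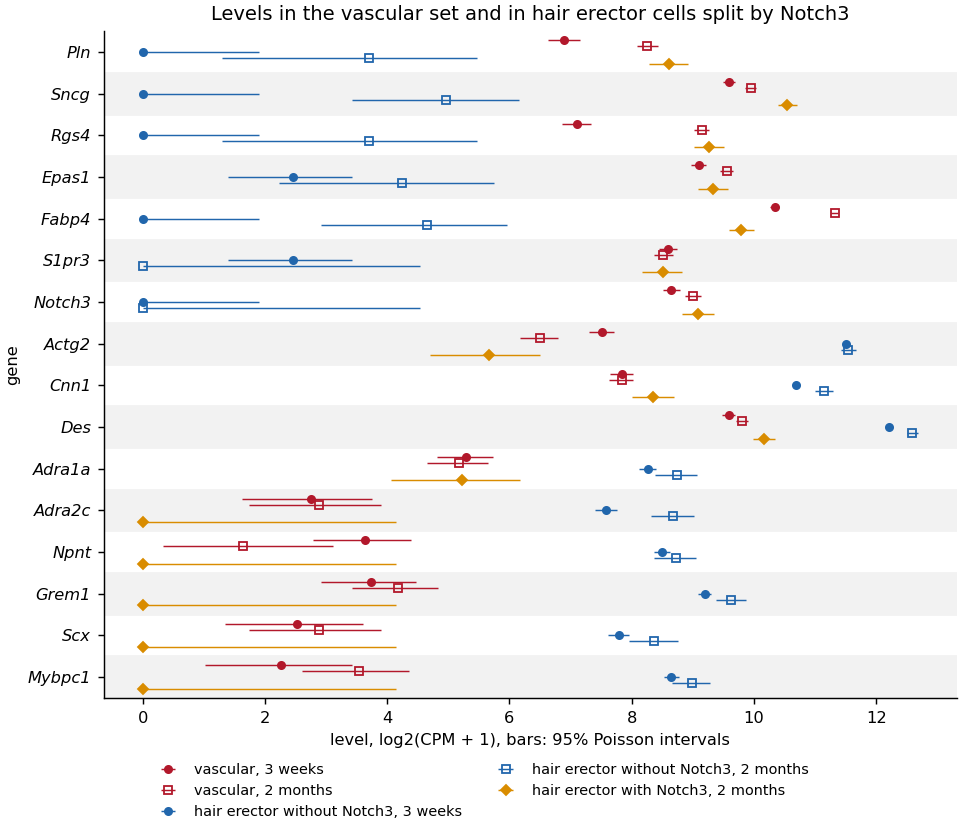
Level of 16 genes, as log2(CPM + 1) on the horizontal axis with 95% Poisson intervals, in the vascular set at 3 weeks and 2 months and in hair erector cells with and without a UMI of Notch3. Hair erector cells without Notch3 stand apart from the vascular set at both ages (Actg2 at 2911 and 2988 CPM), and those with Notch3 at 2 months lie by the vascular set (Actg2 at 49.8 CPM).

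The hair erector set at 2 months did not match its name throughout. Of its 45 cells, 30 had a UMI of Notch3, against 15 of 137 at 3 weeks and the only neonatal cell. A division by Notch3, chosen after these values were seen, gave 15 cells without and 30 with the gene at 2 months. The 15 without Notch3 had 2988 CPM of Actg2, 426 of Adra1a, 408 of Adra2c, 330 of Scx, 792 of Grem1 and 420 of Npnt. At 3 weeks the 122 cells without Notch3 had 2911, 306, 191, 220, 584 and 361 CPM of the same genes. The 30 cells with Notch3 had 49.8 CPM of Actg2 and 36.2 of Adra1a, and no count of Adra2c, Scx, Grem1 or Npnt. They instead had 1495 CPM of Sncg and 390 of Pln, where the vascular set of that library had 984 and 305. For these genes the 30 cells stood nearer to the vascular set than to the hair erector cells of 3 weeks, although no Rgs5 was counted in them. Rgs5 was lowest at 2 months, 1361 CPM in the vascular set against 4697 and 3118 in the younger libraries, and its part in this was not tested. Ratios at 2 months between the vascular set and the 15 cells without Notch3 were not computed, since a set needed 20 cells. Without cells that carry Notch3, hair erector cells were 0%, 40.5% and 6.76% of smooth muscle cells.

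For cells assigned to their sets at full depth, the shares of single genes at equal depth gave a similar picture. The hair erector set itself was smaller when cells were assigned after thinning, as given above. After thinning to 1500 UMIs, Notch3 had a UMI in 32 of 64 neonatal vascular cells, in 53.4% and 56.6% of vascular cells at 3 weeks and 2 months, in 2.19% (0.454 to 6.27%) of hair erector cells at 3 weeks and in 46.7% (31.7 to 62.1%) at 2 months. In keratinocytes, the comparison class taken to lack most smooth muscle genes, it was 2.14%, 1.07% and 1.79%. The interval of the 3 week hair erector share includes the keratinocyte share of that library. Actg2 had a UMI in 43.8%, 13.0% and 4.40% of vascular cells and in 92.0% and 33.3% of hair erector cells, against 0.714%, 0.321% and 0% of keratinocytes. Adra1a had one in 3.13%, 6.16% and 5.03% of vascular cells and in 32.85% and 22.2% of hair erector cells, against at most 0.112% of keratinocytes. The unthinned cells had median totals of 7989, 5528 and 4678 UMIs in the vascular set, 8811 and 6724 in hair erector cells, and 15330, 11541 and 9890 in keratinocytes. Unthinned, the Notch3 shares of hair erector cells were 10.95% and 66.7%. Those of keratinocytes were 17.86%, 10.7% and 11.63% by age, so Notch3 was not absent from the comparison class.

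**Figure D4:**
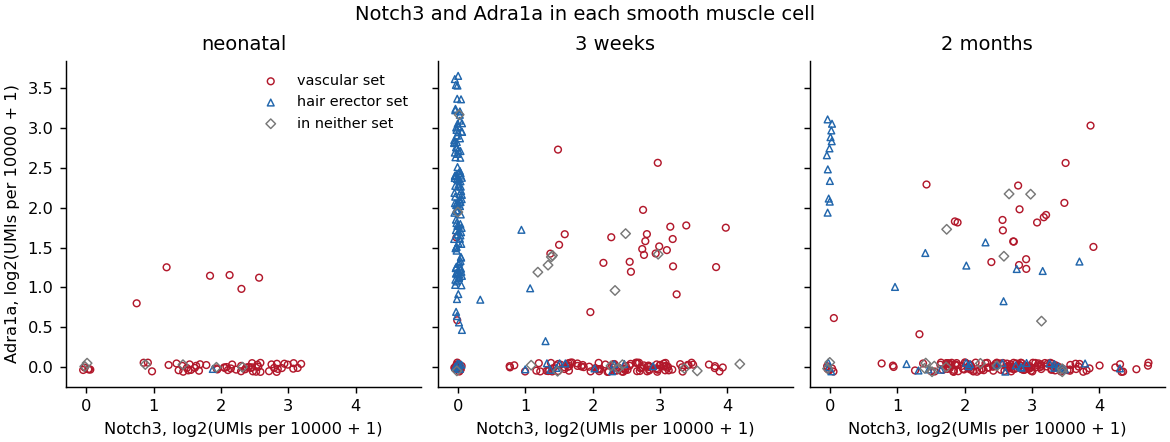
Each point is a smooth muscle cell, with Notch3 on the horizontal and Adra1a on the vertical axis, both as log2(UMIs per 10000 + 1) with a small random offset, for the 3 libraries. At 3 weeks 122 of 137 hair erector cells lie at 0 of Notch3 and 119 have Adra1a, and at 2 months 30 of 45 lie among the Notch3-positive vascular cells.

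When the smooth muscle cells were clustered without the genes of the rule, cluster 2 of 7 held most hair erector cells of 3 weeks. It had 113 cells, of which 95 were hair erector cells of 3 weeks and 12 of 2 months, out of 137 and 45, and it was led by Kcnf1, Ngef, Scx, Rab17 and Adra2c, with 11.8 CPM of Notch3, 418 of Adra1a and 3691 of Actg2. The other 2 month hair erector cells lay in clusters 0, 1, 3, 5 and 6, and 24 and 7 of those of 3 weeks in clusters 5 and 6. Cluster 4 held 61 of the 64 neonatal vascular cells and was led by Xist, Col6a5, Rgs16, Dlk1 and Flt1. With 1 library per age a cluster mostly of 1 library may be that library. Clusters 5 and 6, of 63 and 16 cells, were led by fibroblast genes such as Clec3b and Dcn and by keratinocyte genes such as Cst6 and Lor.

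Within the hair erector set, 15.3% of 7436 genes differed 2-fold or more between 2 months and 3 weeks, 5.18% higher and 10.2% lower at 2 months. Among the restricted cells 16.8% did, 6.35% higher and 10.4% lower. Of the mural list 14 of 21 measured genes were higher at 2 months and 1 lower, and of the channel list 10 and 1 of 26, where the Notch3-bearing cells described above were 30 of the 45. Fabp4 had 9.09 CPM at 3 weeks and 516 at 2 months, and Itih4, Cmbl, Myl1 and 9530034E10Rik stood next to it with 1.30 to 3.25 CPM at 3 weeks and 67.1 to 98.1 CPM at 2 months. On the other side stood epidermal genes: Cst6 had 3953 CPM at 3 weeks and 0 at 2 months, loricrin (Lor) 1531 and 10.3 CPM, Klk10 725 and 0, Dmkn 652 and 2.58, and Krtdap 1286 and 18.1. The keratinocyte marker sum moved with them, 1861 against 46.5 CPM, and its part was not tested. The cell cycle list was lower in 9 of 15 measured genes at 2 months, but in 0 of 4 in the restricted cells, where the proliferation gene Mki67 was at 0 in the 3 week set against 20.8 CPM among all. Actg2 (2582 and 1314 CPM) and Cnn1 (1498 and 1156 CPM) were lower at 2 months among all cells, but not among cells without Notch3 (2911 and 2988, 1656 and 2256 CPM).

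The vascular set was described across all 3 ages, since each library held 64 or more of its cells. From the neonatal library to 3 weeks 17.5% of 6029 genes differed 2-fold or more, 12.9% higher and 4.59% lower at 3 weeks. From 3 weeks to 2 months 8.48% of 6353 did, 3.76% higher and 4.72% lower, and from neonatal to 2 months 23.3% of 5813, 15.9% higher and 7.4% lower. The first 2 comparisons share the 3 week cells, and the last shares cells with both. The restricted cells gave 19.2% between neonatal and 3 weeks (11% higher, 8.23% lower), 7.9% between 3 weeks and 2 months (4.64% and 3.26%) and 25.4% between neonatal and 2 months (15.9% and 9.46%). All list counts by age below stand against these shares, and a list near them says nothing particular. Of 22 measured genes of the actin and myosin list, 2 were higher and 3 lower at 3 weeks, and 2 higher and 4 lower at 2 months, against the neonatal library. The lower ones were 13.6% and 18.2% of the list, and the higher ones 9.09% at each age. Among the restricted cells 4 of 22 were higher and 4 lower at 3 weeks, and 4 and 3 at 2 months.

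Some genes of calcium handling and excitability were higher in older vascular cells, while among all cells of the set most of the list did not pass the limit. Of the channel and calcium list 7 of 32 measured genes were higher and 2 lower at 3 weeks than in the neonatal library, and 8 and 3 of 31 at 2 months. Among the restricted cells the 2 month counts were 14 and 3 of 28, with a median log2 ratio of 0.97 against 0.15 over all genes. Pln had no count in the neonatal vascular set, 118 CPM at 3 weeks and 305 CPM at 2 months. This was at least 22.1-fold and 57.0-fold higher than the floor of 3 counts, and 2.58-fold higher at 2 months than at 3 weeks (log2 1.37, interval 1.06 to 1.68). After thinning it was seen in 0% (0 to 5.60%), 10.96% and 37.1% of vascular cells and in no keratinocyte at any age. Casq2, a calcium store protein, had 5.35, 83.8 and 83.9 CPM, a 15.7-fold ratio at 3 weeks on 3 neonatal counts (interval of log2 2.37 to 6.27). Kcnmb1, a subunit of the calcium-activated potassium channel, had 3.57, 32.4 and 40.4 CPM, and the potassium channel Kcna5 23.2, 75.2 and 86.0 CPM. The calcium pump Atp2a2, which Pln restrains, had 305, 532 and 549 CPM. These genes were lowest in the neonatal set. The channel genes of pericytes, Kcnj8 and Abcc9, went the other way, with 55.3, 4.76 and 7.44 CPM and 37.5, 4.76 and 8.50 CPM.

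Some contractile and cytoskeletal genes were lower at the older ages and others higher. Actg2 had 808, 182 and 89.2 CPM, a log2 difference of -2.15 (-2.40 to -1.91) between 3 weeks and neonatal. The tropomyosin Tpm4 had 632, 299 and 201 CPM and vimentin (Vim) 9328, 3934 and 3034 CPM. In contrast, smoothelin (Smtn) had 42.8, 87.6 and 116 CPM, the actin nucleator Lmod1 280, 308 and 502 CPM, the intermediate filament gene Synm 87.4, 135 and 232 CPM, and Pcp4l1, from the actin and myosin list, 234, 832 and 982 CPM. Of the desmin and plaque list 2 of 33 measured genes were higher and 2 lower at 3 weeks, and 9 and 3 at 2 months, against the neonatal library. The latter were 14 and 2 of 31 among the restricted cells. Sncg was 8.79-fold higher at 3 weeks than in neonatal cells, with 87.4, 768 and 984 CPM.

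**Figure D5:**
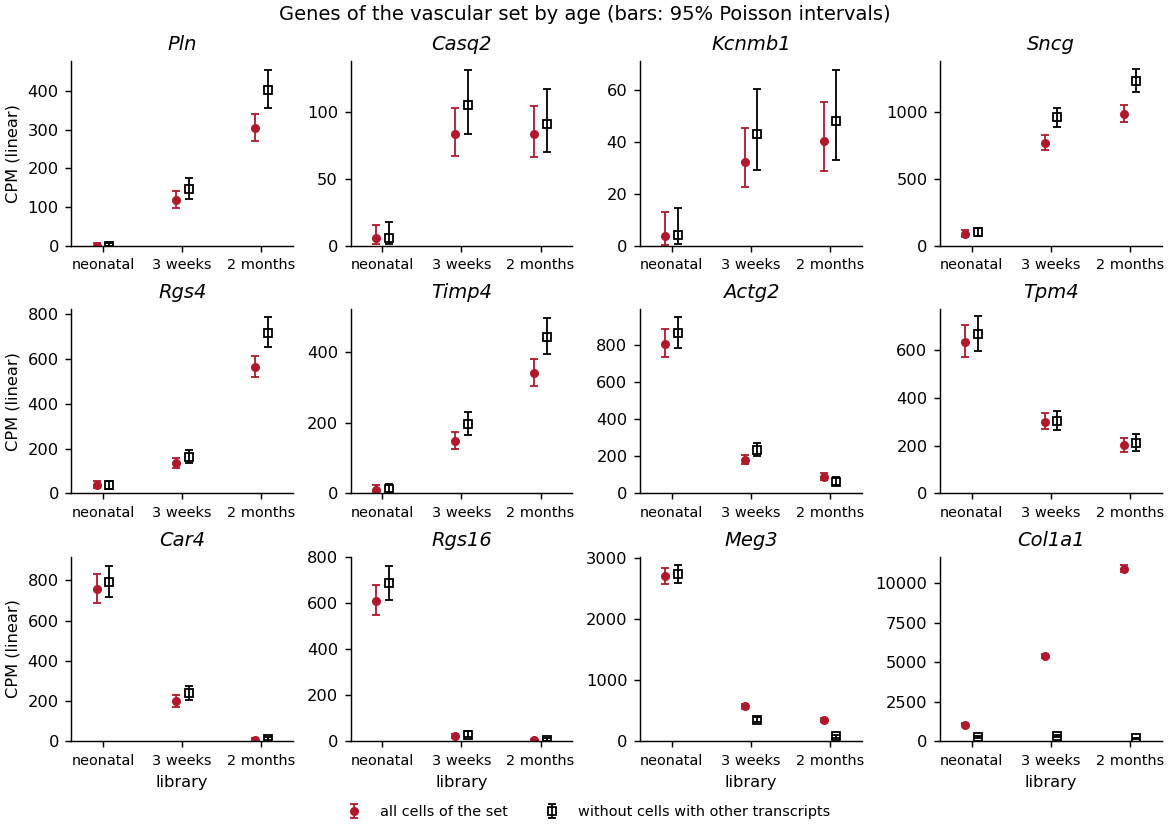
CPM (vertical axis, linear from 0) of 12 genes in the vascular set of each library, with 95% Poisson intervals, for all cells of the set and without cells that carry fibroblast or keratinocyte transcripts. Pln, Casq2, Kcnmb1, Sncg, Rgs4 and Timp4 are lowest in the neonatal library and Actg2, Tpm4, Car4, Rgs16 and Meg3 highest there. Col1a1 is 10927 CPM at 2 months among all cells and 201 CPM among the restricted ones.

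Regulators of G protein signalling differed by age. Rgs16 had 610 CPM in the neonatal set and 20.9 and 4.25 CPM later, and Rgs4 had 37.5, 136 and 566 CPM, 4.16-fold higher at 2 months than at 3 weeks. Gucy1a3, a subunit of the nitric oxide receptor guanylate cyclase, had 155, 185 and 428 CPM, and the neuropeptide Y receptor Npy1r 49.95, 75.2 and 178 CPM. The endothelin receptor Ednra had 162, 87.6 and 99.8 CPM. Of the agonist receptor list 3 of 14 measured genes were higher and 1 lower at 3 weeks than in the neonatal library, and of the mural list 3 and 3 of 27. The mural counts were 11.1% each way, where 12.9% of all genes were higher and 4.59% lower. Notch3 had 368, 401 and 511 CPM, and Hes1, a Notch target, 136, 145 and 339 CPM. Nrarp was highest in the neonatal set, with 535, 226 and 250 CPM.

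Imprinted and fetal growth genes were divided by age. Of the list 5 of 20 measured genes were higher and 4 lower at 3 weeks than in the neonatal library, and 2 and 7 of 16 in the restricted cells. The RNA Meg3 had 2706, 571 and 345 CPM, and 2735, 354 and 82.4 CPM in the restricted cells. Dlk1, from the same imprinted domain, had 392 CPM and no count at either later age. Igf2 had 66.0, 16.2 and 8.50 CPM. H19 had 78.5, 132 and 0 CPM among all cells and 32.2, 2.67 and 0 CPM among the restricted cells, so its 3 week level depended on the cells left out of the restricted set. At 2 months 5 of 21 measured genes were higher and 10 lower than in the neonatal library, and 2 and 8 of 15 in the restricted cells (median log2 -1.90). The transcription factors Sox4 (417, 144 and 77.5 CPM), Nr2f1 (203, 86.6 and 57.4 CPM) and Tbx18 (55.3, 12.4 and 8.50 CPM) were also highest in neonatal cells.

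Some chemokines were highest in the neonatal vascular set. Cxcl1, a neutrophil attractant, had 2519, 405 and 441 CPM, a log2 difference of -2.64 (-2.80 to -2.48) between 3 weeks and neonatal. Ccl2, which attracts monocytes, had 846, 112 and 65.9 CPM, and Cxcl2 344, 48.6 and 3.19 CPM. The NF-kB inhibitor and target Nfkbia had 2440, 1395 and 1515 CPM, and Il1r1 itself 153, 107 and 114 CPM. Of the IL-1, NF-kB and chemokine list 5 of 25 measured genes were higher and 6 lower at 3 weeks than in the neonatal library, and 4 and 8 of 23 at 2 months. In the restricted cells 1 of 19 was higher and 7 were lower at 3 weeks. Il6 had 396, 349 and 165 CPM. WNT genes gave counts of 4 higher and 0 lower of 17 at 3 weeks, but 0 and 0 of 9 in the restricted cells. Fzd4 had 125, 116 and 143 CPM, and Tcf7l1, a transcription factor of the pathway, 91.0, 80.0 and 72.2 CPM, so both differed less than 2-fold between any pair of ages. They do not stand for the list. At 2 months 1 of 19 measured WNT genes was higher and 5 were lower than at 3 weeks, and 0 and 1 of 9 in the restricted cells.

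Matrix genes depended on which cells were kept. Col1a1 had 1044, 5420 and 10927 CPM in all vascular cells but 269, 334 and 201 CPM in the restricted ones. Of the elastic and interstitial matrix list 14 of 48 measured genes were higher and 5 lower at 3 weeks than in the neonatal library, whereas in the restricted cells 3 of 34 were higher and 15 lower. Postn, a matrix protein of growing tissue, had 498, 351 and 55.2 CPM in all and 537, 40.1 and 16.5 CPM in the restricted cells. Elastin (Eln) had 241, 278 and 220 CPM, and 145, 155 and 56.9 CPM in the restricted cells. The basement membrane collagen Col4a1 had 1334, 459 and 436.5 CPM, and Col4a5, another chain, 10.7, 106 and 79.7 CPM. Col4a1 was 1419, 510.5 and 460 CPM in the restricted cells. Timp4, an inhibitor of matrix proteases, had 10.7, 150 and 342 CPM, 13.97-fold higher at 3 weeks than in neonatal cells, and 2.29-fold higher at 2 months than at 3 weeks. Col1a1 is itself a fibroblast marker here, and the restricted cells were chosen by Pdgfra, Dcn and Krt14, so their lower collagen level is no independent measure.

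Interferon and antigen presentation genes were higher in the older vascular cells in part. Of the list 11 of 24 measured genes were higher and 2 lower at 3 weeks than in the neonatal library, and 5 and 3 of 20 in the restricted cells. The higher ones were 45.8% and 25% of the list, against 12.9% and 11% of all genes. H2-K1, a class I antigen, had 123, 384 and 412 CPM, and 123, 283 and 267 CPM in the restricted cells. Bst2, an interferon-induced membrane protein, had 170, 34.3 and 25.5 CPM. Immediate-early genes, which respond to dissociation, were highest at 2 months: Fos had 1372, 1501 and 4231 CPM and Egr1 200, 493 and 1847 CPM. Of the dissociation and heat shock list 4 of 29 measured genes were higher at 3 weeks and 9 of 28 at 2 months, with none lower, against the neonatal library. The higher ones were 13.8% and 32.1% of the list, where 12.9% and 15.9% of all genes were higher. The part of the dissociation in the age differences was not tested.

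Xist, which is transcribed from the inactive X chromosome, had 610 CPM in the neonatal vascular set and no count later, while the Y-linked Ddx3y had 49.95, 154 and 158 CPM. Transcripts of both sexes were thus in the neonatal vascular cells and only male ones in the older sets, and sex and age cannot be told apart in these data. Among genes outside the lists with at least 50 CPM in the higher library, others with the largest ratios between neonatal and older vascular cells were Flt1 (66.0, 2.86 and 2.12 CPM), Col6a5 (60.7, 0 and 0), Ctxn1 (200, 19.99 and 11.7) and Marcksl1 (182, 20.9 and 10.6), with Tubb2b (78.5, 18.1 and 3.19) and Ntng1 (128, 18.1 and 5.31). Car4, a carbonic anhydrase, had 758, 199 and 8.50 CPM and was the lowest by ratio between 3 weeks and 2 months (log2 -4.55, interval -5.78 to -3.54). On the other side stood Lgals7 (3.57, 493 and 478 CPM), Krt17 (3.57, 323 and 132), Perp (0, 227 and 205), Ly6a (0, 231 and 268), Coch (0, 250 and 92.4) and Nupr1 (8.92, 125 and 350). In the restricted cells Ly6a had 0, 10.7 and 4.49 CPM and Nupr1 6.03, 21.4 and 21.0 CPM, whereas Lgals7 had 4.02, 238 and 150 CPM. The keratinocyte marker sum of these restricted cells was 28.1, 724 and 71.9 CPM, and its part was not tested. Between 3 weeks and 2 months, Ctla2a (0 and 70.1 CPM), Cyp2f2 (5.71 and 87.1), Aldh1a1 (5.71 and 51.0), Mmp3 (8.57 and 68.0) and Gpha2 (7.62 and 53.1) were the highest by ratio, and in the restricted 2 month cells they had 8.99, 0, 1.498, 1.498 and 1.498 CPM. Ptx3 (188 and 12.7), Has1 (184 and 26.6), Cyp51 (60.0 and 7.44) and Gm12840 (51.4 and 5.31) were the lowest with Car4.

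The remaining lists of the vascular set were as follows, where at 3 weeks 12.9% of all genes were higher and 4.59% lower than in the neonatal library. In the restricted cells these shares were 11% and 8.23%. At 3 weeks against neonatal, contraction signalling had 3 of 24 measured genes higher and 2 lower, transcription factors 2 and 4 of 39, integrins 0 and 2 of 9, basement membrane 3 and 1 of 16, hedgehog 0 and 2 of 3, and Notch 1 and 2 of 9. TGF-beta and BMP genes had 7 and 2 of 23 and growth and nerve factors 6 and 1 of 17, which were 3 and 2 of 17 and 2 and 1 of 11 in the restricted cells. Cell cycle genes had 1 and 0 of 6. Fgf1, a growth factor, had 17.8, 116 and 169 CPM by age, and Bdnf, a neurotrophin, 92.8, 23.8 and 7.44 CPM.

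Between 3 weeks and 2 months few genes of most lists passed, where 3.76% of all genes were higher and 4.72% lower at 2 months. In the restricted cells these shares were 4.64% and 3.26%. The desmin and plaque list had 0 of 33 either way, actin and myosin genes 0 higher and 2 lower of 22, and channels 1 and 1 of 30. The elastic and interstitial matrix list had 4 higher and 12 lower of 47, but 0 and 2 of 27 in the restricted cells. Imprinted genes had 1 and 7 of 18, but 0 and 2 of 10 there, and the IL-1, NF-kB and chemokine list 1 and 7 of 25, but 0 and 3 of 17. WNT genes had 1 higher and 5 lower of 19, but 0 and 1 of 9 in the restricted cells. TGF-beta and BMP genes had 5 higher and 2 lower of 24, and 6 and 0 of 20 in the restricted cells.

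Pericytes, the mural cells of capillaries, were taken by 2 or more UMIs of Rgs5 with Kcnj8 or Abcc9 and without Myh11, which gave 69, 11 and 7 cells. Against the neonatal vascular set, neonatal pericytes had 2068 CPM of the pericyte markers against 278 CPM and 1026 CPM of the smooth muscle markers against 22039 CPM, with Myh11 at 0 by rule. Kcnj8 and Abcc9 are among the pericyte markers, and Myh11, Acta2 and Tagln among the smooth muscle markers. Both contrasts thus follow in part from how the cells were chosen and are a description. Notch3 was at a similar level in both, 324 and 368 CPM, and Pdgfrb stood at 672.5 and 202 CPM. Myocd had 3.71 CPM in pericytes. Cxcl1 reached 8964 CPM there and Dlk1 1388 CPM, but the same cells carried 3850 CPM of fibroblast, 989 CPM of keratinocyte and 4246 CPM of haemoglobin markers, against 1361, 26.8 and 39.2 CPM in the vascular set, and their part was not tested. Dermal sheath cells, the contractile layer around the hair follicle, were taken by Acta2 with Col11a1 or Acan, Pdgfra and at most 1 UMI of Myh11, and numbered 138, 30 and 0. Neonatal ones had 7630 CPM of the smooth muscle markers and 8675 CPM of fibroblast markers, sums that include the Acta2 and Pdgfra by which they were chosen. Actg2 stood at 448 CPM against 808 CPM in neonatal vascular cells, Itga8 at 19.4 against 182 CPM and Myocd at 0.845 against 60.65 CPM.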

How the data were processed

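RNA of dorsal skin cells was counted by a droplet 3' method in 3 libraries, 1 per age, grouped by the age in the labels. The authors deposited unnormalized UMI counts for every gene in every barcode. Cell Ranger 3.0.2, Seurat 2.0 and mm10 are named per the submitters' processing notes, which give them no role. How barcodes were chosen before deposit is not given in the sources used here.

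Counts of the cells of a set were summed and divided by the summed UMIs to give CPM, with exact Poisson intervals, and ratios carry exact conditional intervals, at 95%. Shares carry Clopper-Pearson intervals. Against a count of 0 the floor was 3 counts. Shares of cells were taken after thinning to 1500 UMIs, which left out 2 vascular cells at 2 months. Doublets were called with Scrublet in scanpy 1.11.5. Its own threshold marked 0.0253% of neonatal barcodes, so the top 6% were marked there. Members were clustered with leidenalg 0.10.2 (resolution 0.6). Ratios were tested on simulated data. TMM scaling from edgeR 4.0.16 served as an alternative, with other limits on barcodes, genes and sets.

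Genes named are those of the gene lists, the 5 highest and 5 lowest of each age ratio outside the lists (at least 50 CPM in the higher library, apart from haemoglobin, ribosomal protein and mitochondrial genes), and the 10 on each side between sets with the highest lower ratio over both libraries. The members and lists were chosen with earlier results of these data known. Promoter windows come from RefSeq.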

Additional observations from a re-analysis of the deposited data

Results flagged for a closer look

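For 2 genes the ratio between 2 months and 3 weeks had opposite directions in the vascular and hair erector sets, a difference that was not tested. Abi3bp, a matrix-associated gene, had a log2 ratio of 1.05 in the vascular set and -1.01 in the hair erector set. Mmp3, a matrix protease, had 2.99 and -2.26. In the restricted vascular cells Mmp3 had 0 CPM at 3 weeks and 1.498 CPM at 2 months.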

How the results depend on the processing

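With 1 library per age no library was left out and no difference was tested, and the number of cells, lowest in the neonatal library, limits rare transcripts. No paired analysis was possible because each age has 1 library and no test was made. The division by Notch3 was not run for 2 month ratios, which left 15 cells. The restricted set and the set without Notch3 were chosen after seeing the data. The cause of the shifts below was not tested, except that a filter fixes how many genes are counted.

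A mitochondrial limit of 5% gave smooth muscle shares of 0.476%, 0.845% and 0.643% by age, no neonatal hair erector cell (0%), and 81.1% vascular and 13.2% hair erector cells at 2 months, and a limit of 20% gave 4.08% smooth muscle at 3 weeks. Requiring Cnn1 gave shares of 0.493%, 2.404% and 1.125%. The restricted set gave 2.83% at 3 weeks. Accepting Des or Itga8 gave 8.45%, 51.5% and 27.0% hair erector cells, and thinning to 1500 UMIs 0%, 18.6% and 10.45%, with 39.2% and 56.4% vascular at the older ages. Asking for 2 UMIs of Rgs5 gave 64.0% vascular at 2 months (63.96%), and leaving out Notch3 gave 0% neonatal and 6.76% 2 month hair erector cells.

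A filter at 50 CPM gave 294 vascular genes higher at 3 weeks than neonatal (777 in the report's setting), 91 higher and 98 lower at 2 months than 3 weeks (239 and 300), 442 higher at 2 months than neonatal (922), 201 lower in the hair erector set at 2 months (756), 474 higher and 425 lower between sets at 3 weeks (865 and 1121) and 170 higher at 2 months (456). No filter gave 1178 and 960, 795 and 735, and 1421 and 1176 in the 3 vascular comparisons (277 and 430 lower with the filter in the first and last), 4167 higher in the hair erector set at 2 months (385), 1461 and 1731 between sets at 3 weeks and 3906 lower at 2 months (263). Without cells with Pdgfra, 192 vascular genes were lower at 2 months than 3 weeks, and 161 in the restricted cells. Unthinned, Notch3 was in 92.2%, 87.0% and 96.3% of vascular and 10.95% and 66.7% of hair erector cells, and Adra1a in 18.5% and 13.7% of vascular and 86.9% and 44.4% of hair erector cells at 3 weeks and 2 months. The single-gene ratios put through the alternatives kept their direction, and 5 alternatives brought Tpm2 at 2 months under 2-fold. They did not cover every gene named. In the restricted vascular cells, Col1a1 (2 months against neonatal) and H19 (3 weeks against neonatal) turned direction, as described above.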
